A study of Mus musculus with 6 samples.

Results

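The contractile and myofibroblast genes described here are 10 genes, Acta2, Tagln, Myl9, Tpm1, Tpm2, Cnn1, Myh11, Des, Actg2 and Lmod1, of the 33696 genes in the count matrices. They were chosen by name, and all 10 were found. Their transcripts were counted in single cells of the mouse Achilles tendon before and after tenotomy, the surgical cut of the tendon. The comparisons ask how far mesenchymal cells used these genes at 7 days post-injury (dpi) and how that use compared with mural cells, the pericytes and smooth muscle cells of vessel walls.

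Smooth muscle cells contract by thick filaments of smooth muscle myosin sliding along thin filaments of alpha and gamma smooth muscle actin, with tropomyosins, calponin and transgelin bound along the actin. Myofibroblasts, the contractile fibroblasts of healing wounds and scars, take up part of this set, with alpha smooth muscle actin as their usual marker, but are generally low in smooth muscle myosin heavy chain. Many of these genes are controlled by serum response factor (SRF), which binds CArG boxes in their promoters.

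Cells came from Gli1-CreERT2; Ai9 mice given tamoxifen, in which Cre under the Gli1 promoter switches on the tdTomato reporter of Ai9, so that the label stays in Gli1-expressing cells and their progeny. Tendons were taken uninjured, at 7 dpi or at 21 dpi, from 8 mice per time group, and tdTomato-positive (Gli1+) and tdTomato-negative (Gli1-) cells were sorted and made into 6 libraries, 1 per condition. All groups carried both alleles and received tamoxifen, and no age was found in the labels or methods. Animals were pooled and cells were not tied to mice, so the comparisons between libraries had no replicates and no test across animals could be made. All intervals are 95% intervals of counting error only, exact Poisson for levels and exact binomial for ratios and shares.

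Of the 10 members, 7 had a promoter window in RefSeq, from 250 bases before to 50 bases after the start of the gene, and the windows of Acta2 and Myl9 are shown because they held CArG boxes. The search was for CC, 6 bases and GG on both strands, with all 6 bases A or T for an exact box and at most 1 of them G or C for a relaxed box. The pieces below run 5′ to 3′ on the strand of the gene, from mouse build GRCm38.p6, with the boxes in capitals. The Acta2 piece is chr19:34255383-34255472, minus strand, and the Myl9 piece is chr2:156775288-156775389, plus strand.
Acta2: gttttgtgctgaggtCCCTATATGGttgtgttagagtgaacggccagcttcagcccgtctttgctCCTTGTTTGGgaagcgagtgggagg
Myl9: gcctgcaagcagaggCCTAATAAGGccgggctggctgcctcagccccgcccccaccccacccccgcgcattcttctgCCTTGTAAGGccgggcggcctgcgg
The 2 relaxed boxes of Acta2 lay 84 and 34 bases before the start. In Myl9 an exact box lay 161 bases and a relaxed box 99 bases before it. An exact box was present in 535 of all 32851 windows (1.63%) and a relaxed or exact one in 3280 (9.98%). The windows of Cnn1, Des, Lmod1, Tpm1 and Tpm2 held no match, and Tagln, Myh11 and Actg2 had no window.

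The libraries held 7057 to 10882 kept cells with medians of 4297 to 9775 UMIs per cell. Mesenchymal cells were taken as cells with at least 1 UMI of Pdgfra, mural cells as cells with at least 1 UMI of Rgs5, and levels are UMIs summed over such cells, scaled to counts per 1000000 UMIs of the same cells (CPM). Among Gli1+ cells 1774 Pdgfra cells came from uninjured tendon, 4790 from 7 dpi and 5255 from 21 dpi, and among Gli1- cells 5108, 6581 and 5529, while Rgs5 cells numbered 435, 859 and 1157 (Gli1+) and 4799, 3150 and 2869 (Gli1-). The Gli1+ uninjured library stood apart, since 3947 of its 7057 cells had a UMI of the leukocyte gene Ptprc. The labels give equal sexes, but 92.7% and 90.5% of cells at 21 dpi had Xist and no Y-linked UMI, at most 0.0108% did so at 7 dpi, and 68.7% did so in the Gli1+ and 0% in the Gli1- uninjured library. Time and sex of the animals therefore cannot be told apart at 21 dpi against 7 dpi, nor at 21 dpi against uninjured tendon in the Gli1- sort, and values within cells of 1 sex are given beside the results they touch. Pairs of libraries shared 15 to 32 cell barcodes, at most 0.354% of the smaller library.

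The 2 classes were checked against their markers. Rgs5 cells were mixed: they had Cdh5, an endothelial junction gene, at 347 CPM for the Gli1+ sort and 384 CPM in the Gli1- uninjured library, and at 7 dpi they had myofibroblast matrix genes at a summed 41919.7 and 52603 CPM. The rule also missed cells, since Gli1- uninjured cells with neither gene had Acta2 at 708 CPM, above the 484 CPM of Rgs5 cells. Rgs5 cells are therefore called by their rule, and cells with 1 gene and not the other (Pdgfra-only and Rgs5-only cells) are given beside them. Of the 11 mural markers other than Rgs5, which the rule used, 8 were lower by 2-fold or more in Pdgfra than in Rgs5 cells of both 7 dpi libraries, among them Notch3, a receptor of mural cells, at 9.02 CPM against 51.9 CPM in the Gli1+ library. The other 3, Pdgfrb, Cspg4 and Ndufa4l2, did not separate the classes by 2-fold, with Pdgfrb at 82.4 CPM against 99.2 CPM and Ndufa4l2 at 186 CPM against 222 CPM there. A keratin-rich group was sorted as Gli1+ after injury, and the 5 epidermal markers summed to 3305 CPM in Gli1+ Pdgfra cells at 7 dpi against 127 CPM in the uninjured library. The members' levels were also read without every cell that passed a gate of another type, with the values given below. This did not take out all keratin UMIs. Krt14, an epidermal keratin, still stood at 606 to 689.6 CPM in 3 groups of such Gli1+ Pdgfra-only cells at 7 dpi, against at most 20.5 CPM in uninjured tendon. The part of other cells was therefore not fully measured.

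At 7 dpi the actin, myosin light chain and tropomyosin members were far above their uninjured levels in Pdgfra cells of the Gli1+ sort. Of the 10 members, 9 were higher by 2-fold or more and 0 lower, where 13.3% of all 15634 genes with at least 50 UMIs were higher and 19.5% lower. The median log2 ratio was 3.65 over the members and -0.16 over all these genes. In the Gli1- sort 6 members were higher and 3 lower, against 13.8% and 15.4% of 15981 genes, with medians of 1.67 and -0.08. Among Gli1+ cells of 1 sex, described below, 7 were higher and 1 lower, and without cell filters 7 were higher. The share of all genes was not computed under these settings, so these counts have no background.

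Acta2, alpha smooth muscle actin, was counted in Gli1+ Pdgfra cells at 11.6 CPM before injury, 627 CPM at 7 dpi and 208 CPM at 21 dpi, and in Gli1- Pdgfra cells at 125, 483 and 237 CPM. Both 7 dpi libraries were above the other 4, and the Gli1+ uninjured library was the lowest. The log2 ratio of 7 dpi over uninjured was 5.76 (5.56 to 5.96) in the Gli1+ sort, a fold of 54.1, and 1.95 (1.90 to 2.0) in the Gli1- sort, a fold of 3.86. Within cells with a Y-linked UMI and no Xist it was smaller in the Gli1+ sort, at 4.68. Among Gli1+ Pdgfra cells that passed no gate of another type, 1588 uninjured and 4516 at 7 dpi, the ratio was 6.36. A single Gli1+ uninjured cell held 71 of the 210 Acta2 UMIs, and without the cell with most Acta2 UMIs in each library the ratio was 6.34. Acta2 was also higher at 7 dpi in other cells of the Gli1+ libraries. Cells with Cdh5 and Pecam1 UMIs and no Pdgfra or Rgs5 UMI had 10.3 CPM before injury and 218 CPM at 7 dpi. Keratin-rich cells, 80 uninjured and 1841 at 7 dpi, had 5.95 and 139.8 CPM. How much of the ratio in Pdgfra cells was shared by all cells of the library was not tested.

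Actg2, gamma smooth muscle actin of gut and other visceral muscle, was low throughout. Its levels were 0.663, 28.9 and 5.15 CPM among Gli1+ Pdgfra cells and 2.38, 18.1 and 8.73 CPM among Gli1- ones, with uninjured tendon first and 21 dpi last, as in all such triplets. The log2 ratio at 7 dpi was 5.45 (4.64 to 6.40) in the Gli1+ sort, resting on 12 uninjured UMIs, and 2.93 (2.60 to 3.27) in the Gli1- sort. A single Gli1- uninjured cell held 55 of the 80 Actg2 UMIs, without which that level was 0.744 CPM, and without the top cell of each library the Gli1- ratio was 4.56. Both actins were thus highest at 7 dpi in both sorts.

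**Figure D1:**
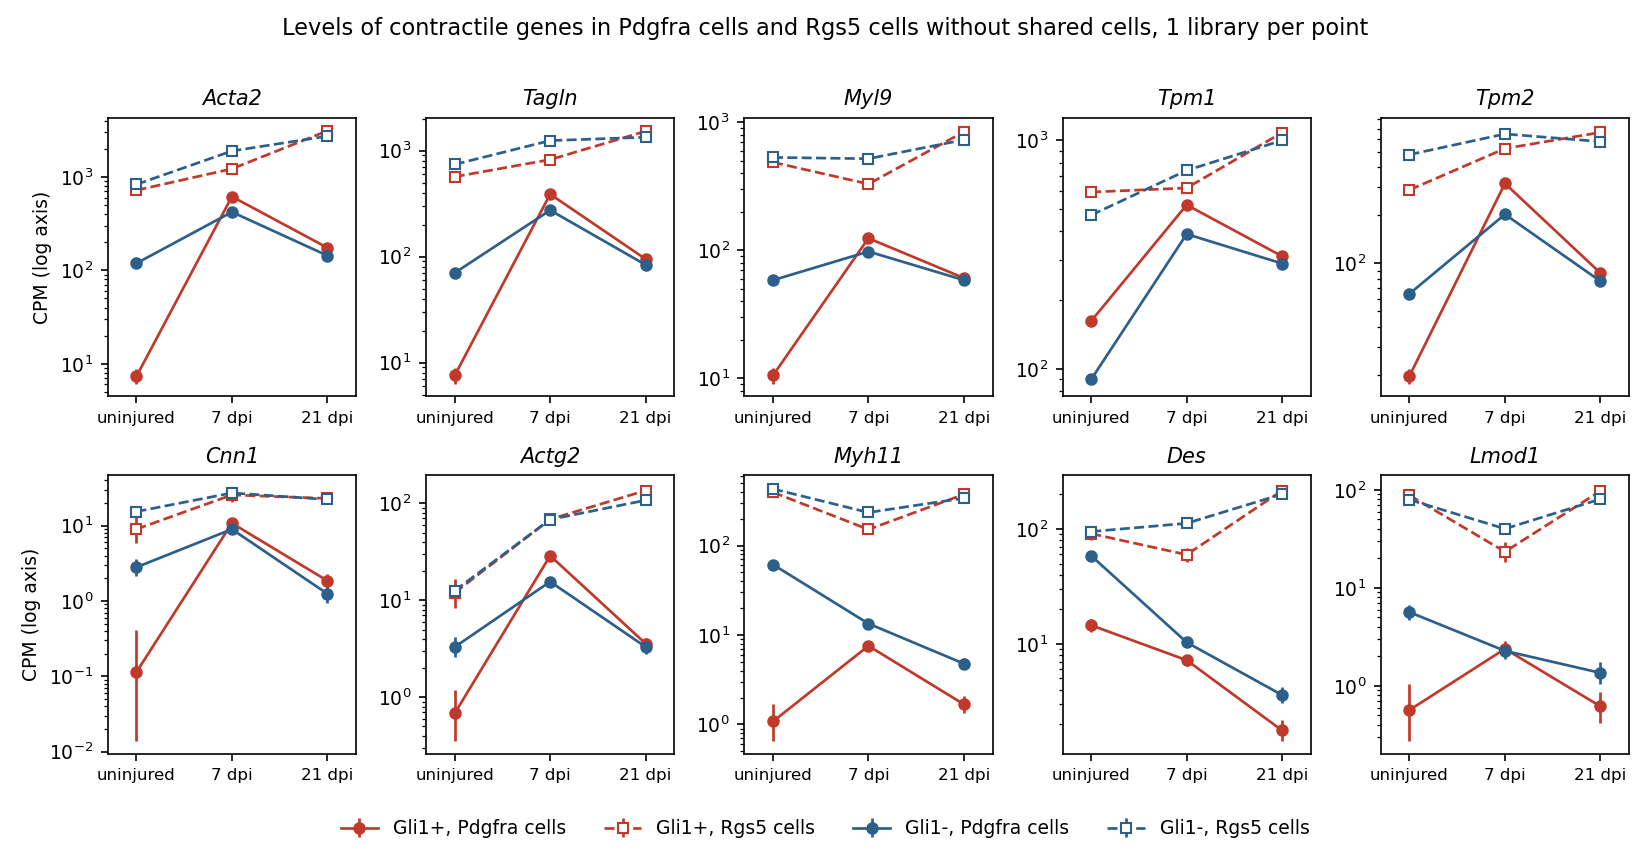
Level of each of the 10 genes in CPM (log axis) in Pdgfra-only cells (filled circles, solid lines) and Rgs5-only cells (open squares, dashed lines) of the 6 libraries, with time on the horizontal axis, Gli1+ in red and Gli1- in blue, and bars for the exact Poisson 95% interval of counting error. In Gli1+ Pdgfra-only cells Acta2 goes from 7.33 CPM in uninjured tendon to 617 CPM at 7 dpi, while Des lies lower at 7 dpi than before injury in Pdgfra-only cells of both sorts.

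The genes bound along actin filaments followed the actins. Tagln, transgelin, an actin cross-linker of smooth muscle, stood at 9.66, 393 and 107 CPM among Gli1+ and 82.3, 312 and 122 CPM among Gli1- Pdgfra cells, with log2 ratios at 7 dpi of 5.35 (5.13 to 5.57) and 1.92 (1.87 to 1.98). Tpm2, beta tropomyosin, stood at 20.5, 319 and 95.4 CPM and at 69.6, 223 and 95.3 CPM, with ratios of 3.96 (3.81 to 4.11) and 1.68 (1.62 to 1.74). Both genes were highest at 7 dpi in both sorts.

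Tpm1, alpha tropomyosin, which many cell types use in muscle and nonmuscle forms, differed from the others in its uninjured level. It stood at 174, 532 and 326 CPM among Gli1+ and at 90.1, 422 and 330.0 CPM among Gli1- Pdgfra cells, and was the only member whose uninjured level was higher in the Gli1+ than in the Gli1- library. Its log2 ratio at 7 dpi was 1.61 (1.56 to 1.66) and 2.23 (2.17 to 2.28). A single Gli1+ uninjured cell held 190 Tpm1 UMIs, and the top 1% of Pdgfra-only cells without another gate held 45.8% of the Tpm1 UMIs there.

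Cnn1, basic calponin, a brake on actomyosin and a marker of differentiated smooth muscle, was nearly absent before injury. Its 0.110 CPM in Gli1+ uninjured Pdgfra cells rested on 2 UMIs, and it stood at 11.2 CPM at 7 dpi and 1.87 CPM at 21 dpi. In the Gli1- sort it stood at 2.95, 9.35 and 1.87 CPM. The ratios at 7 dpi were 6.66 (4.80 to 9.71) and 1.67 (1.36 to 1.98) on the log2 scale.

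Myl9, the regulatory light chain of smooth muscle myosin, was higher at 7 dpi, by less in the Gli1- than in the Gli1+ sort. It stood at 12.5, 127 and 68.2 CPM among Gli1+ and at 65.0, 112 and 79.2 CPM among Gli1- Pdgfra cells. Its ratios were 3.34 (3.15 to 3.54) and, below the 2-fold limit, 0.79 (0.72 to 0.85). Whether the sorts differed could not be tested with 1 library each.

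Myh11, the heavy chain of smooth muscle myosin, went in opposite directions in the sorts. It stood at 4.03, 9.11 and 4.60 CPM among Gli1+ and at 71.3, 17.6 and 12.9 CPM among Gli1- Pdgfra cells, with log2 ratios at 7 dpi of 1.18 (0.82 to 1.55) and -2.02 (-2.11 to -1.92). In cells with a Y-linked UMI and no Xist the ratio was -0.31 in the Gli1+ and -2.08 in the Gli1- sort, so the Gli1+ direction did not hold within 1 sex. Without cells of other types the Gli1+ ratio was 2.47 at 7 dpi and 1.55 at 21 dpi, where all cells gave 1.18 and 0.19, and 1 uninjured cell held 36 of its 73 UMIs. The Gli1+ level of Myh11 at 7 dpi did not exceed the 10.2 CPM (8.74 to 11.8) of 1841 keratin-rich cells of that library. Lmod1, leiomodin, which starts new actin filaments in smooth muscle, stood at 0.773, 2.71 and 1.66 CPM and at 7.47, 2.85 and 3.45 CPM. Its ratios were 1.81 (1.02 to 2.71), from 14 uninjured UMIs, and -1.39 (-1.65 to -1.13). In the cells with a Y-linked UMI and no Xist it gave 0.48 in the Gli1+ sort, short of 2-fold.

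Des, desmin, the intermediate filament of muscle cells, was lower at 7 dpi in both sorts. It stood at 15.1, 8.72 and 5.48 CPM among Gli1+ and at 59.8, 12.7 and 15.3 CPM among Gli1- Pdgfra cells. The ratios were -0.80 (-1.01 to -0.58) and -2.23 (-2.34 to -2.13), the second past the 2-fold limit. Desmin is also found in skeletal muscle, whose 6 marker genes summed to 57.4 and 46.0 CPM for the Gli1+ sort and 20.6 and 9.35 CPM in the Gli1- Pdgfra cells of uninjured and 7 dpi tendon. Without cells of other types, those of the muscle gate among them, the Des ratios were -0.79 and -2.25.

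Within cells of 1 sex the ratios of the Gli1+ sort were smaller for most members. Gli1+ Pdgfra cells with a Y-linked UMI and no Xist, 410 uninjured and 3692 at 7 dpi, gave log2 ratios of 4.68 for Acta2, 4.77 for Tagln, 3.35 for Tpm2, 2.91 for Myl9, 4.35 for Actg2 and 4.03 for Cnn1, each still past 2-fold. With Lmod1 and Myh11 short of it, 7 members in place of 9 were higher by 2-fold within 1 sex, where the share of all genes was not computed. Tpm1 gave 1.98, above its value over all cells, and Des -1.65, now past the 2-fold limit. In the Gli1- sort the same restriction gave 1.98 for Acta2 and -2.35 for Des. Scaling by TMM, another way to set libraries on 1 scale, raised every ratio of 7 dpi over uninjured Pdgfra cells by 0.29 in the Gli1+ and 0.16 in the Gli1- sort.

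**Figure D2:**
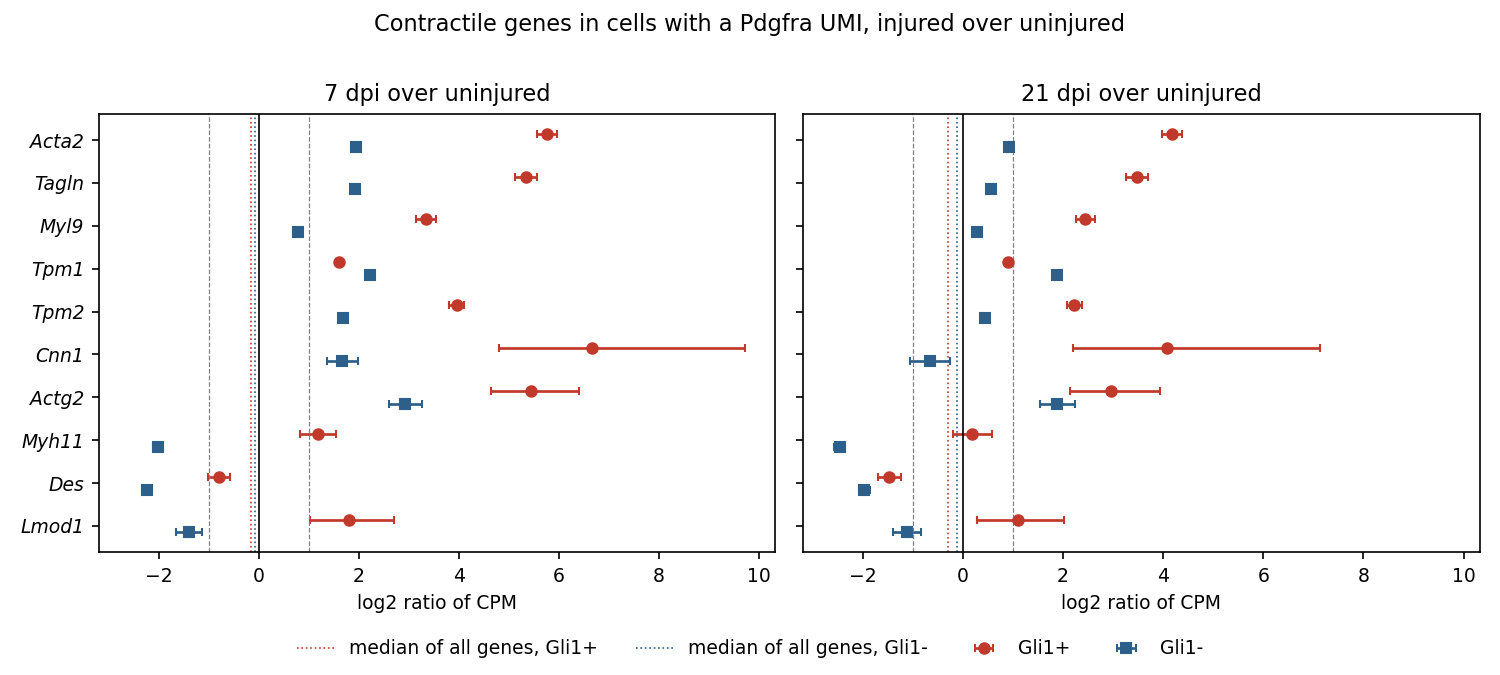
Log2 ratio of CPM in Pdgfra cells for each gene, at 7 dpi over uninjured (left) and 21 dpi over uninjured (right), with Gli1+ as red circles, Gli1- as blue squares, exact binomial 95% intervals of counting error, dashed lines at the 2-fold limits and dotted lines at the median of all genes. At 7 dpi Acta2 lies at 5.76 (Gli1+) and 1.95 (Gli1-), and Myh11 lies at 1.18 (Gli1+) and -2.02 (Gli1-).

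Free RNA gives UMIs in cells that do not use a gene, so the members were also read in cells with Cdh5 and Pecam1 UMIs and no Pdgfra or Rgs5 UMI, taken as endothelial. In the Gli1- uninjured library these 968 cells had 132 CPM of Acta2, where Pdgfra-only cells had 119 CPM, and 95.7 CPM of Myh11, where Pdgfra-only cells had 61.3 CPM. The Gli1- uninjured levels of Acta2, Tagln, Tpm1, Tpm2, Myh11 and Lmod1 in Pdgfra-only cells were not above those in endothelial cells, and of Myl9, Cnn1, Des and Actg2, which were, only Des was higher beyond the counting intervals. Without the 1 cell with most of the gene's UMIs, Cnn1 stood at 1.56 CPM and Actg2 at 0.847 CPM in these Pdgfra-only cells, below the 1.81 and 0.903 CPM of endothelial cells. The lower Myh11 and Lmod1 after injury in the Gli1- sort was therefore a difference in levels that did not exceed the endothelial level of either library, since at 7 dpi Myh11 stood at 13.4 CPM against 37.3 CPM and Lmod1 at 2.28 CPM against 3.22 CPM in endothelial cells.

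The share of all genes higher in Pdgfra-only than in endothelial cells was not computed at any time, so nothing particular to the members is read here. At 7 dpi Acta2, Tagln, Myl9, Tpm1, Tpm2 and Actg2 were higher beyond the counting intervals in both libraries. Cnn1 was so in the Gli1- library only. Des was higher within the intervals in both libraries, as were Cnn1 and Myh11 in the Gli1+ library. That Myh11 level, 7.56 CPM in Pdgfra-only cells, did not exceed the 10.2 CPM of the keratin-rich cells there. Myh11 in the Gli1- library and Lmod1 in both were not higher. The Gli1+ library held only 64 such endothelial cells. Acta2 stood at 422 CPM against 242 CPM for the Gli1- sort and at 617 CPM against 218 CPM in the Gli1+ library. Tpm2 stood at 203 CPM against 78.7 CPM and at 317 CPM against 115 CPM. Endothelial cells also use Tpm1, which stood at 389 CPM against 340.2 CPM and at 522 CPM against 357 CPM. At 21 dpi Acta2, Myl9 and Tpm2 were higher in Pdgfra-only cells beyond the counting intervals in both libraries, and Tpm1 and Actg2 in the Gli1+ library only. Within the intervals Cnn1 was higher in both, Myh11 in the Gli1+ and Des and Actg2 in the Gli1- library. The others were not higher, among them Tagln in both, at 94.8 CPM against 158 CPM and at 83.7 CPM against 123 CPM. In the Gli1+ uninjured library Acta2, Tagln, Myh11 and Actg2 were not above the 199 endothelial cells, which had 10.3 CPM of Acta2 and 63.8 CPM of Tagln where Pdgfra-only cells had 7.33 (6.12 to 8.71) and 7.56 (6.33 to 8.96) CPM. There 3672 leukocytes without Pdgfra or Rgs5 had less, at 3.95 (3.29 to 4.70) CPM of Acta2 and 4.26 (3.58 to 5.04) CPM of Tagln. Of the other 6 members in that library, only Tpm1 was higher than in endothelial cells beyond the counting intervals. Whether endothelial UMIs of these genes were free RNA or use by the cells was not tested.

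With every cell thinned to 2000 UMIs, the share of Pdgfra-only cells with an Acta2 UMI was 1.57%, 36.4% and 11.4% for the Gli1+ sort and 15.5%, 29.0% and 12.4% for the Gli1- sort. Thinning left out 17 to 91 shallower cells per library, and without it the shares were 6.28%, 71.8% and 27.7% and 36.5%, 66.9% and 35.7%. Endothelial cells had shares of 1.09%, 36.8% and 3.95% and of 21.5%, 21.8% and 10%. By share, Acta2 at 7 dpi was above that background in the Gli1- library but not in the Gli1+ library, against the order of the CPM values there, so no order is read for the Gli1+ library. The median depth of Pdgfra-only cells was 5791 to 11091 UMIs and that of the endothelial cells 2823 to 7077 UMIs.

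The same thinned shares were read for other members at 7 dpi. Tpm1 was seen in 48.0% of Gli1+ and 39.0% of Gli1- Pdgfra-only cells, against 43.9% and 42.2% of endothelial cells, which also use it, so no background for Tpm1 is read from them. For the genes that follow no endothelial share is set beside the values, so they are not read as use above background. Tpm2 was seen in 33.4% and 21.5% of Pdgfra-only cells, Tagln in 26.4% and 20.8% and Myl9 in 15.2% and 13.0%. Actg2 reached 3.79% and 1.79%, Cnn1 1.55% and 0.883%, and Myh11 1.27% and 2.93%. Each Gli1+ share but that of Des, at 1.39% after 2.62%, was higher at 7 dpi than in uninjured tendon.

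The Rgs5 cells of the rule were read first. At 7 dpi, 3 members were higher by 2-fold or more in Rgs5 than in Pdgfra cells of the Gli1+ library, where 2.94% of 14816 genes were higher, and 4 in the Gli1- library, where 3.0% of 15911 genes were. None was lower, against 0.877% and 0.145% of genes. The 3 genes in common were Myh11, with log2 ratios of 2.95 and 2.10, Des, with 2.05 and 1.66, and Lmod1, with 2.17 and 2.14, and the fourth in the Gli1- library was Myl9 at 1.04. Acta2 was higher by 0.53 and 0.92 and Tpm1 by 0.22 and 0.37, short of 2-fold.

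These classes shared cells, since 408 of the 859 Gli1+ and 1875 of the 3150 Gli1- Rgs5 cells at 7 dpi also had Pdgfra. Between Rgs5-only and Pdgfra-only cells 7 members of the Gli1+ and 9 of the Gli1- library were higher by 2-fold or more in Rgs5-only cells, against 8.27% and 9.04% of genes. The log2 ratio of Rgs5-only over Pdgfra-only cells at 7 dpi was 0.99 (0.94 to 1.03) in the Gli1+ and 2.17 (2.14 to 2.20) in the Gli1- library for Acta2. For Myh11 it was 4.32 (4.13 to 4.52) and 4.12 (4.0 to 4.24). For Tpm1 it was 0.25 (0.18 to 0.31) and 0.92 (0.88 to 0.96), short of 2-fold in both libraries.

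The level in Pdgfra-only cells was read as a percentage of that in Rgs5-only cells. For Acta2 it was 1.02%, 50.5% and 5.60% for the Gli1+ sort and 14.3%, 22.2% and 5.25% for the Gli1- sort. For Tagln it was 1.33%, 47.2% and 6.22% and 9.47%, 22.1% and 6.26%. Both were nearest to the Rgs5-only level at 7 dpi in both sorts, and lay at 5.25% to 6.26% of it at 21 dpi. In Pdgfra-only cells uninjured Acta2 and Tagln, and Tagln at 21 dpi, did not exceed endothelial levels in either sort. No mesenchymal use is read from those percentages. Rgs5-only cells were themselves mixed to a degree that differed between times. Of the Gli1+ ones, 130 of 396, 310 of 451 and 668 of 744 passed no gate of another type. Of all Rgs5 cells at 7 dpi, 588 of 859 (Gli1+) and 2003 of 3150 (Gli1-) had no UMI of Pln, Casq2, Kcnmb1, Kcnj8, Abcc9 or Higd1b, genes of smooth muscle and pericytes.

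Tpm1 came closest to the Rgs5-only level. In Pdgfra-only cells at 7 dpi it reached 84.3% of its Rgs5-only level in the Gli1+ and 52.7% in the Gli1- library, and Tpm2 reached 60.5% and 31.3%. Myl9, Cnn1 and Actg2 reached 37.7%, 42.0% and 42.0% in the Gli1+ library and 18.8%, 33.1% and 22.9% in the Gli1- library. The lowest percentages were those of Myh11 at 5.0% and 5.74%, Des at 12.1% and 9.20% and Lmod1 at 10.2% and 5.69%. Cnn1, also a marker of differentiated smooth muscle, was not among them. In the Gli1- sort Myh11, Des and Lmod1 lay nearer to the Rgs5-only level before injury, at 14.3%, 61.6% and 7.12%. The Gli1- levels of Myh11 and Lmod1 in Pdgfra-only cells did not exceed those of endothelial cells, so no mesenchymal use is read from their percentages. The same holds for Gli1+ Lmod1 at 7 dpi and Gli1+ Myh11 before injury. Actg2 stood at 26.1% in Gli1- uninjured tendon, and at 6.72% without the 1 cell that held most of its UMIs. In the Gli1+ sort Myh11 and Lmod1 lay further from the Rgs5-only level before injury, at 0.274% and 0.646%, and Des nearer, at 16.0%. At 7 dpi the percentages of Myh11, Des and Lmod1 thus lay below those of the other 7 members in both libraries, while their course from uninjured tendon differed between the sorts.

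**Figure D3:**
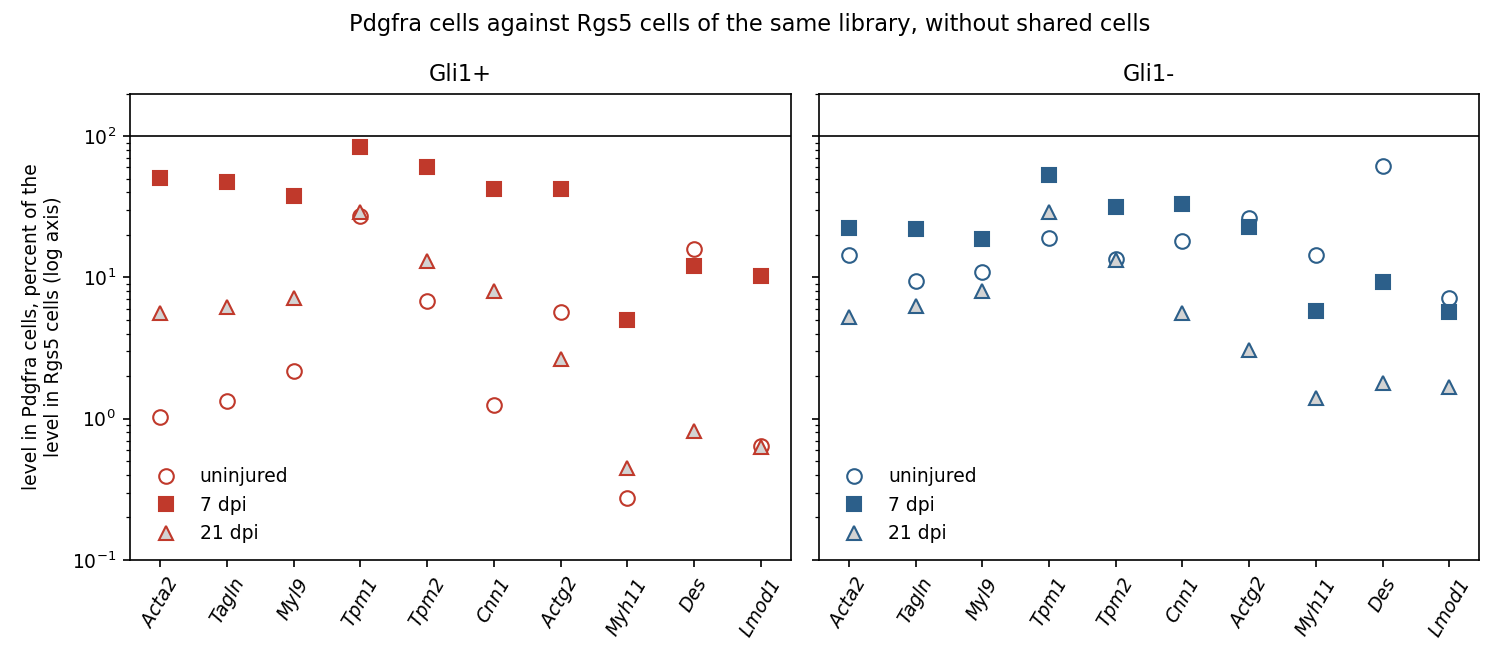
Level of each gene in Pdgfra-only cells as a percentage of its level in Rgs5-only cells (log axis), with Gli1+ libraries on the left, Gli1- libraries on the right and a line at equal levels. At 7 dpi Tpm1 lies at 84.3% and 52.7% and Myh11 at 5.0% and 5.74% in the Gli1+ and Gli1- libraries.

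The size of this percentage depended on how strictly mural cells were defined. With at least 5 Rgs5 UMIs, no Pdgfra UMI and no gate of another type, a class chosen after the values were seen, 116 Gli1+ and 372 Gli1- mural cells remained at 7 dpi and their Acta2 stood at 3569 and 5209.9 CPM. Against them Pdgfra-only cells reached 18.0% and 8.16% for Acta2, 38.2% and 25.7% for Tpm1, and 1.51% and 1.89% for Myh11. Acta2 still lay further from the mural level in uninjured Gli1+ tendon, at 0.314%, and at 21 dpi, at 3.42% and 2.98%.

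Rgs5 cells of the rule were also compared over time. In Gli1+ Rgs5 cells 2 members were higher at 7 dpi and 3 lower by 2-fold or more, against 14.2% and 22.6% of 12042 genes, and in Gli1- Rgs5 cells 1 was higher and 2 lower, against 12.4% and 20.2% of 14966 genes. These counts were near the share over all genes, and in the Gli1- sort the 2 lower became 0 without shared cells, in cells with at least 3 Rgs5 UMIs, in the stricter mural class above and by the mean over cells. Myh11 stood at 352, 70.2 and 215 CPM among Gli1+ and 259, 75.5 and 174 CPM among Gli1- Rgs5 cells, and Lmod1 at 76.2, 12.2 and 57.7 CPM and 45.1, 12.6 and 42.0 CPM.

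In the stricter mural class above, Myh11 stood at 1296, 514 and 589 CPM among Gli1+ and 1014, 708 and 590.4 CPM among Gli1- cells, and Lmod1 at 305, 80.5 and 151 CPM and 238, 122 and 142 CPM. In the Gli1- sort neither was lower by 2-fold at 7 dpi in this class. Actg2 stood at 10.2, 44.1 and 82.1 CPM and 6.57, 33.9 and 62.6 CPM in Rgs5 cells and at 57.9, 212 and 231 CPM and 55.7, 194 and 204 CPM in the stricter class. The higher Actg2 of Gli1+ Rgs5 cells at 7 dpi did not stay past 2-fold within cells of 1 sex. The 101 uninjured and 618 7 dpi Rgs5 cells with a Y-linked UMI and no Xist gave log2 ratios of 0.27 for Actg2, where all cells gave 2.10, and of -0.75 for Acta2, where all cells gave 0.51. Without cells of other types the Gli1+ ratio was 1.0 for Actg2 and -0.44 for Acta2. Y-linked Rgs5 cells of the Gli1- sort gave 2.16 for Actg2 and 0.99 for Acta2.

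Inside the Rgs5 cells, those with Pln, Casq2 or Kcnmb1, genes of arterial smooth muscle, were compared with those that had only Kcnj8, Abcc9 or Higd1b, genes of pericytes. In the Gli1- library at 7 dpi, 281 cells of the first and 866 of the second kind had Acta2 at 2711 and 1170.1 CPM, a log2 ratio of 1.21 (1.17 to 1.25). Myh11 separated them further, at 486 and 94.2 CPM, a ratio of 2.37 (2.24 to 2.49). Des stood at 102 and 87.8 CPM, a ratio of 0.22 (0.02 to 0.42), so that desmin was near equal in both kinds.

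Where in a library the Acta2 transcripts lay differed between times. Pdgfra-only cells held 3.69%, 55.4% and 22.6% of all Acta2 UMIs in the Gli1+ libraries and 13.6%, 35.5% and 11.6% for the Gli1- sort. Rgs5-only cells held 61.8%, 7.05% and 51.5% and 46.8%, 24.6% and 64.6%. Of these 2 classes, Pdgfra-only cells thus held the larger share at 7 dpi and Rgs5-only cells at the other times, in both sorts. At 7 dpi cells with both genes held 7.19% (Gli1+) and 25.2% (Gli1-), and cells with neither 30.3% and 14.7%.

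Smooth muscle myosin heavy chain was the member whose larger share lay in Rgs5-only cells of both libraries at 7 dpi. Rgs5-only cells then held 37.3% of Myh11 UMIs in the Gli1+ and 49.4% in the Gli1- library, and Pdgfra-only cells 29.0% and 18.4%. Des and Lmod1 did the same in the Gli1- library, with 42.2% and 51.3% in Rgs5-only and 25.2% and 18.9% in Pdgfra-only cells. Tpm1 lay at the other end, with 4.48% and 13.3% of its UMIs in Rgs5-only and 58.9% and 45.5% in Pdgfra-only cells. These shares also follow the cell numbers, since Pdgfra-only cells made up 24.6%, 47.4% and 49.5% of Gli1+ and 32.5%, 47.4% and 40.1% of Gli1- cells, and Rgs5-only cells 5.61%, 4.88% and 7.61% and 29.7%, 12.8% and 15.6%. At 7 dpi Pdgfra-only cells held 49893684 of 90826014 UMIs of all genes (Gli1+) and 56576693 of 107887022 (Gli1-). Their share of Acta2 UMIs was near their share of all UMIs in the Gli1+ library and below it in the Gli1- library.

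**Figure D4:**
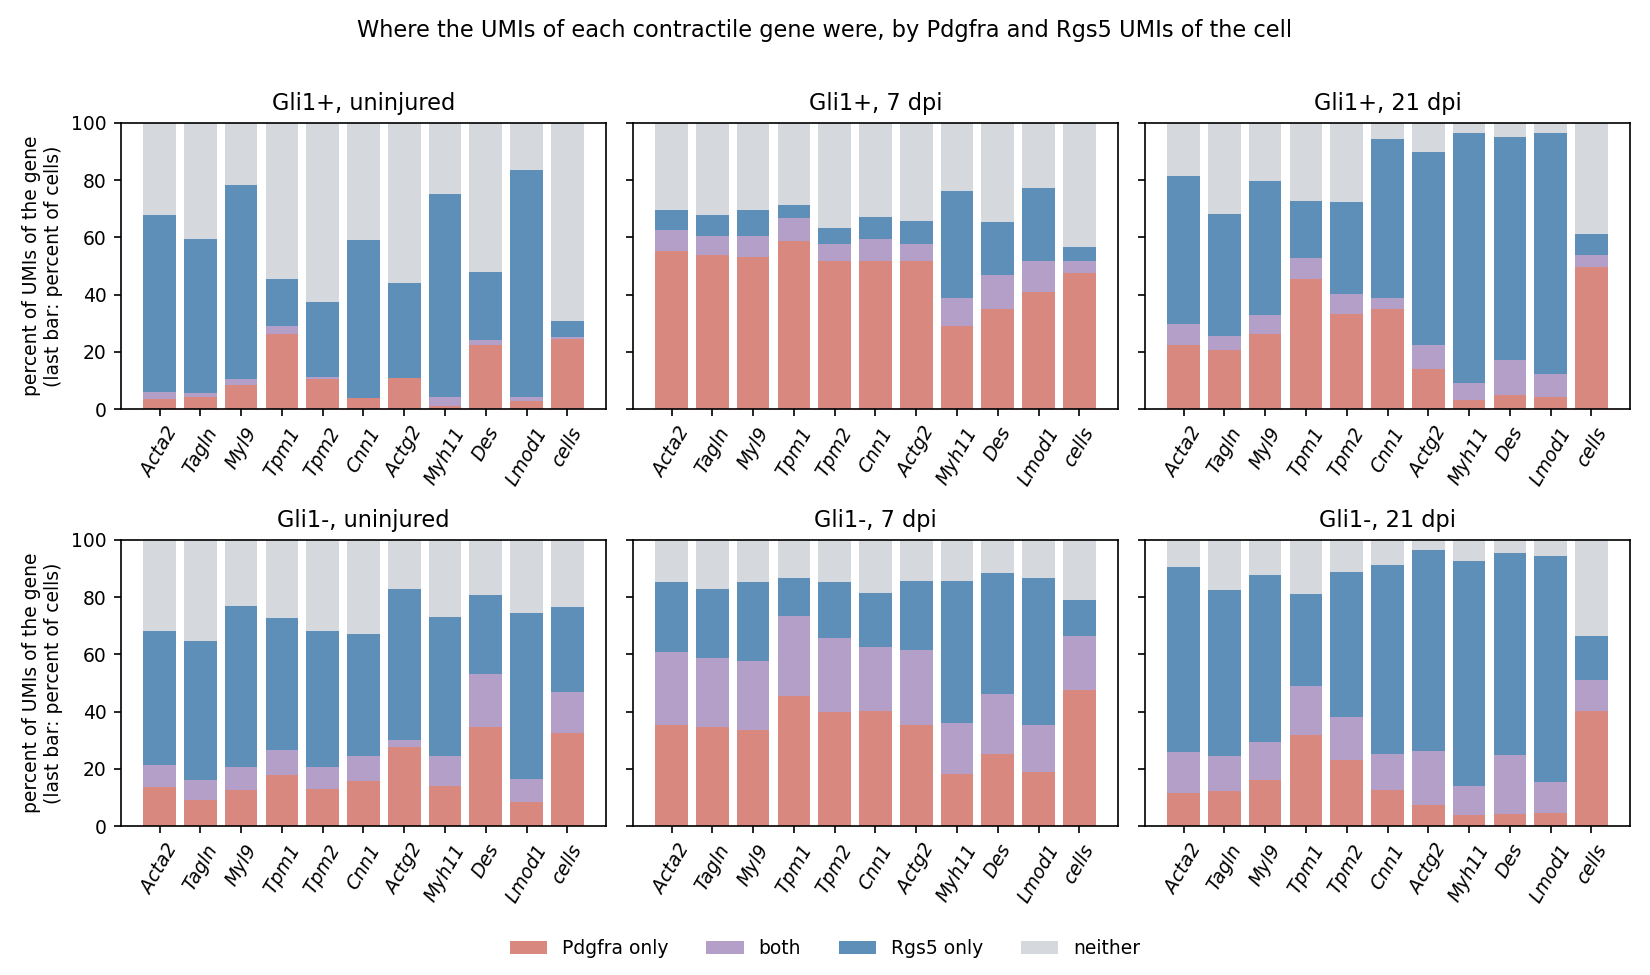
Percent of each gene's UMIs held by Pdgfra-only cells, Rgs5-only cells, cells with both and cells with neither, in each of the 6 libraries, with the percent of kept cells in each class as the last bar. At 7 dpi Pdgfra-only cells hold 55.4% of Gli1+ Acta2 UMIs, against 3.69% in uninjured tendon.

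Acta2 was unevenly spread over the Pdgfra cells. Among Gli1+ Pdgfra-only cells without another gate at 7 dpi, the top 10% of cells held 66.5% of the Acta2 UMIs and 43.2% of the Tpm1 UMIs, and in the Gli1- library 73.4% and 48.3%. After thinning, 18.0% of these Gli1+ cells (736 cells) and 10.8% of the Gli1- cells (489 cells) had 2 or more Acta2 UMIs. No Gli1+ and 45 Gli1- uninjured cells did, and at 21 dpi 3.99% and 3.29% did. The 45 cells were unlike the 489 Gli1- cells at 7 dpi. They had Myh11 at 916 against 16.9 CPM, Notch3 at 78.0 against 10.3 CPM and Postn at 19.5 against 3893 CPM. They held 1099 of the 2600 Acta2 UMIs of Gli1- uninjured Pdgfra-only cells without another gate, so part of that uninjured level rested on them.

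Most other members stood together with Acta2 in Pdgfra-only cells without another gate at 7 dpi. In Gli1+ cells at 7 dpi with 0, 1 and at least 2 thinned Acta2 UMIs, Tagln stood at 136, 264 and 1198 CPM, Tpm2 at 152, 259.6 and 779 CPM and Actg2 at 7.47, 12.5 and 101 CPM. Myh11 stood at 4.32, 3.91 and 19.6 CPM and Des at 5.69, 7.61 and 10.1 CPM. Postn, periostin, a matrix protein of healing tissue, was high whether or not Acta2 was seen, at 3239, 3487 and 3701 CPM. Of 5 mural markers read in these 3 groups, Notch3 stood at 7.98, 6.41 and 8.35 CPM, Higd1b at 0.739, 1.20 and 0.643 CPM, Mcam at 1.33, 0.978 and 2.02 CPM and Kcnj8 at 12.9, 9.35 and 3.03 CPM. Ndufa4l2, which did not separate the classes, stood at 198, 209 and 134 CPM. In the same 3 groups of the Gli1- library Tagln stood at 97.2, 226 and 1083 CPM and Tpm1 at 278, 371 and 877 CPM, while Myh11 stood at 12.9, 12.2 and 16.9 CPM and Des at 9.72, 9.91 and 13.2 CPM, which differed little.

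Cells in cycle, with at least 2 UMIs of Mki67 and Top2a together, were set against other Pdgfra cells. At 7 dpi the Gli1+ library had 601 cycling and 4189 other cells, and the Gli1- library 547 cycling and 6034 other cells. Cycling cells were deeper, with medians of 16702 against 9993 UMIs (Gli1+) and 20981 against 11382 UMIs (Gli1-). The part of depth in the values below was not tested. In the Gli1+ library 1 member was higher by 2-fold or more and 0 lower, against 4.41% and 4.93% of 14415 genes, and in the Gli1- library 4 were higher and 0 lower, against 6.44% and 5.50% of 14992 genes. The median log2 ratio was 0.52 and 0.90 over the members and 0.04 and 0.09 over all genes.

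Acta2 stood at 990.1 CPM in cycling and 538 CPM in other Gli1+ Pdgfra cells, and at 978 and 400.3 CPM in Gli1- cells, a log2 ratio of 0.88 and of 1.29 (1.26 to 1.32). Cnn1 passed 2-fold in both, at 20.8 and 8.77 CPM, a ratio of 1.25 (1.0 to 1.48), and at 19.3 and 7.68 CPM, a ratio of 1.33 (1.10 to 1.55). Tpm2 and Actg2 passed it in the Gli1- library only, with 1.08 (1.03 to 1.13) and 1.31 (1.15 to 1.47). Des was lower in cycling Gli1+ cells, short of 2-fold, at -0.61 (-1.01 to -0.24), and stood at -0.09 (-0.35 to 0.16) in the Gli1- library. Myh11 stood at -0.17 (-0.51 to 0.16) and 0.32 (0.12 to 0.52). Over all cycling cells, with or without Pdgfra, Acta2 stood at 20.1, 843 and 434 CPM for the Gli1+ sort and at 1096 and 1004 CPM for the Gli1- sort of 7 and 21 dpi, and the Gli1- uninjured library had only 17 such cells. The kinds of cells behind these Gli1+ levels differed between times, since 360 of the 377 uninjured cycling cells had no Pdgfra UMI and Ptprc stood at 795 CPM in them all, while Krt14, a keratin of the epidermis, stood at 5692 and 7959.8 CPM in cycling cells of 7 and 21 dpi, so no change over time is read from them.

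The sorts were set against each other at 7 dpi, when 0 members were higher and 0 lower by 2-fold in Gli1+ than in Gli1- Pdgfra cells, against 4.11% and 1.96% of 16455 genes. Acta2 was higher in the Gli1+ library by 0.38 and Tpm2 by 0.51 on the log2 scale, and Myh11 stood at a log2 ratio of -0.95 (-1.10 to -0.80). In uninjured tendon Acta2 stood at -3.43, Tagln at -3.09 and Myh11 at -4.15, where the Gli1- levels of these 3 genes did not exceed those of endothelial cells and the libraries differed in the sex of their cells. In that comparison 0 members were higher and 9 lower, against 11.1% and 4.85% of 14613 genes. At 21 dpi 0 were higher and 3 lower, against 1.51% and 2.12% of 15648 genes. The 3 were Myh11 at -1.49 (-1.70 to -1.29), Des at -1.48 (-1.67 to -1.30) and Lmod1 at -1.06 (-1.42 to -0.70), while Acta2 stood at -0.19, Tpm2 at 0.00 and Tpm1 at -0.02.

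Acta2 differed by less between tendon cell states inside the Pdgfra class than between 7 dpi and uninjured tendon. Cells with Scx and Fmod, genes of tenocytes, numbered 812 in the Gli1+ and 898 in the Gli1- library at 7 dpi, and cells with Ly6a and Tppp3 and no Scx, marks of tendon sheath stem cells, 1564 and 2978. The first were deeper, with medians of 14333 against 9750.5 UMIs (Gli1+) and 17415.5 against 10348.5 UMIs (Gli1-). The part of depth was not tested. Acta2 stood at 699 CPM in the first and 444 CPM in the second of the Gli1+ library, a log2 ratio of 0.66 (0.61 to 0.70), and at 676 and 352 CPM in the Gli1- library, 0.94 (0.90 to 0.98). Tpm1 was likewise higher in the Scx cells, by 0.47 and 0.59. Des was lower in them, by 0.46 and 1.34 on the log2 scale, with levels of 6.70 and 9.21 CPM for the Gli1+ sort and 6.95 and 17.6 CPM in the Gli1- library.

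At 21 dpi the members other than Des lay between their 7 dpi and uninjured levels in Gli1+ Pdgfra cells. The share of all genes that did so was not computed, so this is not read as particular to the members. The 7 dpi levels of Myh11 and Lmod1 were not higher by 2-fold within 1 sex. Against uninjured tendon, 7 members were higher by 2-fold or more and 1 lower in the Gli1+ sort, where 7.90% and 18.8% of 15236 genes were, and 2 were higher and 3 lower in the Gli1- sort, where 12.4% and 15.7% of 15467 genes were and time could not be told apart from sex. Against 7 dpi, time and sex could not be told apart in either sort. In that comparison 0 members were higher and 5 lower in the Gli1+ sort, where 4.46% and 10.2% of 15923 genes were. In the Gli1- sort 0 were higher and 5 lower, where 5.34% and 6.18% of 16285 genes were. Acta2, Tagln, Tpm2, Cnn1 and Actg2 were the 5 in both sorts, with log2 ratios of -1.59, -1.88, -1.74, -2.58 and -2.49 (Gli1+) and of -1.03, -1.36, -1.23, -2.32 and -1.05 (Gli1-). The Gli1+ count was 9 between Pdgfra-only cells and 8 between cells with at least 2 Pdgfra UMIs, and the Gli1- count was 3 without cell filters or doublet removal, where Acta2 and Actg2 fell short of 2-fold. For these counts the share of all genes was not computed.

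Tpm1 differed less than Acta2, Tagln, Tpm2, Cnn1 and Actg2, with log2 ratios of 21 over 7 dpi of -0.71 and -0.35. Des at 21 dpi lay below uninjured tendon in both sorts, at -1.47 and -1.97. In Gli1+ Pdgfra cells with Xist and no Y-linked UMI, 1128 uninjured and 4961 at 21 dpi, Acta2 stood at a log2 ratio of 4.76 over uninjured where all cells gave 4.17, and Des at -0.92, short of 2-fold. Actg2 stood there at 5.84 where all cells gave 2.96, and Myh11 at 1.51, past 2-fold, where all cells gave 0.19.

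The remaining genes of the contractile apparatus were read from lists. Of 20 other smooth muscle contraction genes, 19 had at least 50 UMIs, and at 7 dpi over uninjured 4 were higher and 5 lower by 2-fold in Gli1+ and 4 higher and 8 lower in Gli1- Pdgfra cells, with medians of 0.04 and -0.63. Over all genes 13.3% were higher and 19.5% lower in the Gli1+ sort and 13.8% and 15.4% in the Gli1- sort, and the Gli1+ counts were near these shares. In the Gli1+ sort Aoc3, an amine oxidase of smooth muscle surfaces, stood at 28.2 CPM after 5.80 CPM, while Mustn1, a small muscle regeneration protein, stood at 17.7 CPM after 129 CPM and Synpo2, an actin-binding protein of muscle, at 4.11 CPM after 18.6 CPM. In the Gli1- sort Itga8, an integrin of smooth muscle, stood at 2.89 CPM after 15.4 CPM, and Synpo2 at 6.41 CPM after 21.9 CPM. The smooth muscle list as a whole thus did not share the direction of Acta2, Tagln and Tpm2.

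Nonmuscle actomyosin genes and matrix genes of myofibroblasts were read against the same shares of all genes, as were the lists that follow. Of 17 nonmuscle genes, 8 were higher and 1 lower in the Gli1+ and 6 higher and 0 lower in the Gli1- sort, with medians of 0.85 and 0.84. Actn1, the alpha actinin of stress fibers, stood at 176 CPM after 48.7 CPM among Gli1+ and at 172 CPM after 30.2 CPM among Gli1- Pdgfra cells. Of 15 matrix genes, 13 and 14 were higher, with medians of 1.87 and 2.70, and Postn stood at 3246 CPM after 162 CPM and at 3327 CPM after 81.1 CPM. Cthrc1, a secreted protein of matrix-forming fibroblasts, stood at 795 CPM after 20.8 CPM and at 668 CPM after 9.61 CPM.

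SRF regulators and genes responsive to transforming growth factor beta had lower medians than the nonmuscle and matrix lists. Of 7 SRF regulators 2 were higher in the Gli1+ and 1 in the Gli1- sort, with medians of 0.44 and 0.18, among them Fhl2, an SRF cofactor, at 98.2 CPM after 16.2 CPM and at 94.4 CPM after 12.9 CPM. Of 10 genes responsive to transforming growth factor beta, 1 was higher and 1 lower in the Gli1+ and 2 higher and 0 lower in the Gli1- sort, with medians of 0.06 and 0.18. The 8 genes induced by tissue dissociation, such as Egr1, were lower at 7 dpi for 6 of 8 in both sorts, with sums of 20896 and 10096 CPM among Gli1+ and 26522 and 11078 CPM among Gli1- Pdgfra cells of uninjured and 7 dpi tendon, and their part in the members' levels was not tested.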

How the data were processed

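The authors deposited 1 matrix of counts per library, the UMIs of 33696 genes in each cell barcode, from Chromium 3 prime v3 libraries of sorted cells, without normalization. The submitters' processing notes name Cell Ranger 3.1.0, STAR and mm10, while the file headers name Cell Ranger 9.0.0, and 1735 gene IDs were absent from the GENCODE M21 annotation, so the build of the counts is unsettled and coordinates here come only from RefSeq promoters. Levels were computed from all cells that passed the filters of the methods (no fewer than 200 genes and 1000 UMIs, a log10 gene to log10 UMI ratio from 0.7 up, and mitochondrial and hemoglobin shares up to 5% each). DoubletFinder was not used here, and Scrublet in scanpy 1.11.5 took out the highest-scoring 0.8% of cells per 1000 cells instead.

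UMIs were summed per library and class, with Python 3.11.15, numpy 2.4.6 and scipy 1.17.1, and ratios were formed for genes with at least 50 UMIs over both sums. With 1 library per condition no test was run, and "higher" or "lower by 2-fold" is a limit of size at a log2 ratio of 1. TMM scaling (edgeR 4.0.16, R 4.3.3) was an alternative. The scripts were tested on simulated data. Gates of other types were Cdh5 with Pecam1, Ptprc, or at least 1% of UMIs from epidermal or muscle markers, and a further gate whose genes are not reported here. The members, lists and classes were chosen with earlier results of these data known, and the stricter mural class and the relaxed CArG search after the values were seen. The text names all 10 members and, of each list, genes among the 4 with the largest absolute log2 ratio, plus Postn and Rgs5. Markers named in checks of the classes fall outside this rule and were chosen after their values were seen. The genes most like Acta2 and Tpm1 were the 5 with the highest Pearson correlation among genes at 50 CPM or more in at least 1 of 12 sums.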

Additional observations from a re-analysis of the deposited data

Results flagged for a closer look

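Myh11 and Lmod1 had ratios of opposite sign in Gli1+ and Gli1- Pdgfra cells, and with 1 library per condition the difference between sorts was not tested. For Myh11 at 7 dpi over uninjured the log2 ratio was 1.18 in the Gli1+ and -2.02 in the Gli1- sort. For Lmod1 it was 1.81 and -1.39 at 7 dpi, and 1.10 and -1.11 at 21 dpi. In cells with a Y-linked UMI and no Xist, the 7 dpi ratios were -0.31 and -2.08 for Myh11 and 0.48 and -1.28 for Lmod1. In the Gli1- libraries neither gene was above its endothelial level in Pdgfra-only cells at any time. In the Gli1+ library at 7 dpi Myh11 stood at 7.56 CPM in Pdgfra-only cells, below the 10.2 CPM of keratin-rich cells.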

How the results depend on the processing

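With 1 library per condition no replicate could be left out. No paired analysis was run, and each group held a single library. Counts of members past 2-fold are given as the main count, then the alternatives. The share of all genes was computed for alternatives only between Rgs5 and Pdgfra cells, without shared cells and in narrow classes. The other alternative counts have no background and are not read as particular to the members. Stricter classes asked for at least 2 Pdgfra, 3 Rgs5 or 4 cycling UMIs, and narrow classes, chosen after the data were seen, for at least 5 Rgs5 UMIs and no gate of another type, without shared cells. For 7 dpi over uninjured Gli1+ Pdgfra cells 0 lower became 1 without shared cells and 1 in Y-linked cells. For 21 dpi over uninjured 1 lower became 0 in Xist cells (Gli1+), and 2 higher became 1 without shared cells, 4 with stricter classes and 1 with the narrow classes (Gli1-). For 21 over 7 dpi 5 lower became 9, 8 and 9 under these 3 settings (Gli1+), and 3 without cell filters and 3 without doublet removal (Gli1-). For Rgs5 over Pdgfra cells 3 higher became 7, 9 and 10 (Gli1+) and 4 became 9, 10 and 10 (Gli1-), and with the mean over cells 7 and 9. In Gli1+ Rgs5 cells 2 higher became 1 without other cell types, 0 in Y-linked cells and 1 in narrow classes, and 3 lower became 1 with stricter classes and 5 in Y-linked cells. In Gli1- Rgs5 cells 1 higher became 2 without shared cells, 5 with stricter classes, 3 with TMM, 4 with the mean over cells, 2 in Y-linked cells and 2 in narrow classes, and 2 lower became 0 without shared cells, in stricter and narrow classes and by the mean over cells. Cycling Gli1+ cells went from 1 higher to 2 by the mean over cells. For Gli1+ over Gli1- 0 lower became 1 without filters, without doublet removal, by the mean over cells and without other types. Of these counts 215 stayed within 1.5 times and 39 did not, while of the members' log2 ratios 733 moved past their counting intervals, 461 did not and 4 reversed, and of the shares 16 moved and 2 did not. Reversed ratios were Myh11 at 7 dpi in Gli1+ Y-linked Pdgfra cells (-0.31), Cnn1 in Gli1+ Y-linked Rgs5 cells (-0.28), Des in Gli1+ Rgs5 cells with stricter classes (0.08) and Actg2 at 21 dpi over uninjured in narrow Gli1- Pdgfra cells (-0.01). The cause was not tested. Without the cell with most UMIs of a gene in each library, a setting chosen after the data were seen, Actg2 at 7 dpi in Gli1- Pdgfra cells went from 2.93 to 4.56 and at 21 dpi from 1.88 to 3.43, and at 21 dpi over uninjured Myh11 (Gli1+) and Acta2 (Gli1-) passed 2-fold, at 1.07 and 1.04. Acta2 UMIs in Pdgfra-only cells at 7 dpi moved from 35.5% to 30.5% without filters and 36.7% with stricter classes (Gli1-), and from 55.4% to 53.8% without filters, 56.3% without doublet removal and 38.2% with stricter classes (Gli1+). In Rgs5-only cells they moved from 24.6% to 26.7% without filters, 23.6% without doublet removal and 20.5% with stricter classes (Gli1-), and from 7.05% to 6.77% without doublet removal and 4.95% with stricter classes (Gli1+). Thinned to 4000 UMIs, the share of Pdgfra-only cells with Acta2 was 2.38%, 51.7% and 17.8% (Gli1+) and 25.9%, 43.9% and 20.7% (Gli1-).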

Other observations

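Among Pdgfra cells at 7 dpi nearly all had a Postn UMI, and the few without it had less Acta2. Cells without it were also shallower. Their median depth was 3815.5 against 12255 UMIs in the Gli1- and 3176.5 against 10662.5 UMIs in the Gli1+ library. The part of depth in the values below was not tested. In the Gli1- library Acta2 stood at 487 CPM in 6357 cells with Postn and 171 CPM in 224 cells without, a log2 ratio of 1.51 (1.29 to 1.73), and Tpm1 was 1.56 higher. Myh11 went the other way, at 17.4 and 36.9 CPM, as did Des, at 12.3 and 47.2 CPM. In the Gli1+ library Acta2 stood at 629 CPM with Postn and 126 CPM in the 60 cells without.

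Pdgfra cells with at least 3 UMIs of Col2a1, the collagen of cartilage, had Acta2 at 405 CPM at 7 dpi in the Gli1- library (54 cells), and at 63.4 and 112 CPM at 21 dpi in the Gli1+ (142 cells) and Gli1- (239 cells) libraries.

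Over the 12 sums of Pdgfra and Rgs5 cells in 6 libraries, which share cells and libraries, the non-member genes most like Acta2 in log2(CPM + 1) were Flna (Pearson r of 0.97), Aoc3 (0.96), Elavl1 (0.95), Pkig (0.94) and Snrpb (0.94). The genes most like Tpm1 were Gpi1 (0.98), Cycs (0.98), Cnn2 (0.97), Slc25a5 (0.96) and Ndufa4l2 (0.96). Among the members Tagln was nearest to Acta2 at 0.99 and Des furthest at 0.48.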
